A study of Mus musculus with 6 samples.

Results

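Immediate early genes are transcribed within minutes of a stimulus, before any new protein is made, and many of them encode transcription factors. The set described here joins them to the genes that shut mitogen-activated protein (MAP) kinase signalling down again. It was put together by gene function, from symbols, and holds 39 of the 54838 genes in the deposited count table. These are 9 transcription factors of the AP-1 and ATF families, 10 of the EGR, NR4A, KLF and MYC families, 5 immediate early genes that are not DNA-binding factors, 7 MAP kinase phosphatases, 5 Sprouty and Spred genes and 3 Gadd45 genes. All 39 had reads in each of the 6 libraries, and all 39 were among the 14708 genes that passed the filter on low counts.

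The libraries come from whole atrial tissue of old mice (average age 20.9 ± 0.43 months, with the kind of error not stated), males and females together, and were sequenced to compare mice lacking protein kinase C-epsilon, the product of Prkce, with wild-type (WT) mice. The design counts 3 animals of each genotype as biological replicates. Per the labels, WT mice were C57BL/6J and knockout (KO) mice were of the line JAX stock #004189, and nothing else was given to either group. Whether the controls were littermates is not stated. Atria were flash-frozen, and 1 µg of column-purified total RNA per animal went into an unstranded library kit.

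The labels contradict each other for 4 of the 6 libraries. The genotype in a library's own name, which is also its column name in the count table, was used as the first reading. The genotype field, which the sample title and the mouse line follow, was used as the second. Libraries are called here by the genotype in their name and the replicate number in their title. WT1 is WT and KO1 is KO in both readings. WT2 and WT3 are KO in the genotype field, and KO2 and KO3 are WT there. Both readings use the same 6 libraries, so they are not independent of each other, and within the 4 libraries that carry contradictory labels one reading mirrors the other exactly.

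The level of Prkce, the gene targeted in the line, did not settle which label holds. It was at 36.2, 11.7 and 30.2 CPM in WT1, WT2 and WT3 and 9.20, 5.15 and 28.6 CPM in KO1, KO2 and KO3. These are counts over the whole gene, which do not show whether reads came from the disrupted exons. The library labelled WT2 by name had little Prkce and the library labelled KO3 by name had much. By the genotype field, the library labelled WT that is called KO2 here had the lowest level of all, and the library labelled KO that is called WT3 here was among the highest. The main fits formed no group by Prkce level. Fits without the libraries at odds with Prkce, given as checks, left libraries with much Prkce against libraries with little. Results are given under both readings, apart from some summaries that name the reading they use.

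Total counts ran from 11574206 to 24138824 per library, the mitochondrial share from 17.4% to 19.5%, and the normalization factors from 0.946 to 1.03. The summed level of 4 Y-linked genes was 1.08 and 1.09 CPM (read counts scaled to library size) in WT1 and WT2 and between 78.9 and 146 CPM in the other 4 libraries, so both libraries with almost no Y-linked reads are labelled WT by name, while by field each group holds 1 of them. WT1 stood apart from the other libraries: it held the highest value of 27.4% of all genes tested and the lowest value of 25.1%. Cardiomyocyte markers were high throughout, at a sum of 35013 to 44097 CPM over 6 genes. Markers of ventricular muscle, Myl2 and Myh7, were at a sum of 73.2 to 508 CPM.

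In the MAP kinase cascades, growth factor receptors and other inputs act through Ras and Raf on the kinases MEK and ERK, and stress acts on the parallel JNK and p38 kinases. The active kinases phosphorylate resident transcription factors such as CREB, which binds the cAMP response element (CRE), and the ternary complex factors, which bind with SRF at the CArG box, and these switch on the immediate early genes. Among the genes switched on are dual-specificity phosphatases and Sprouty and Spred proteins, which inactivate MAP kinases or block Ras and Raf and so close a feedback loop. In the heart these genes respond to stretch, catecholamines and injury, and also to the handling of tissue after death. Protein kinase C-epsilon is activated by diacylglycerol and can feed into the same cascades.

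Because immediate early genes are defined by fast transcription after a stimulus, stretches that carry the CRE or its half-site are shown for selected members. They were selected whether or not their groups separated, and other carriers, such as Klf4, are not shown. Windows of 250 bases upstream of a RefSeq start (build GRCm38.p6) were found for 32 of the 39 genes. Each stretch runs 5′ to 3′ on the strand of the gene, and capitals mark the full CRE, TGACGTCA, or the half-site TGACG, which reads CGTCA on the other strand. None of the stretches overlaps an annotated exon. Those of Dusp8, Dusp1 and Nr4a1 lie inside introns of longer transcripts of the same gene, and the other 4 lie outside any annotated gene. Dusp8 (chr7:142095332-142095399, minus strand) holds 2 full CREs, Dusp1 (chr17:26508600-26508671, minus strand) a half-site and a full CRE, and Btg2 (chr1:134079306-134079329, minus strand) a full CRE. Junb (chr8:84978842-84978862, minus strand) holds 1 half-site. The NR4A genes hold a row of them, with 4 in Nr4a1 (chr15:101266605-101266818, plus strand), 4 in Nr4a2 (chr2:57124102-57124211, minus strand) and 3 in the part shown of Nr4a3 (chr4:48045066-48045112, plus strand).
Dusp8: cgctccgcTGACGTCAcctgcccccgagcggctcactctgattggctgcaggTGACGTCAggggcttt
Dusp1: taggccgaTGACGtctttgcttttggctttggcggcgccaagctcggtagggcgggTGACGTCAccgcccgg
Btg2: cccaataaTGACGTCAgtgagcga
Junb: cctgacagTGACGcgagccgc
Nr4a1: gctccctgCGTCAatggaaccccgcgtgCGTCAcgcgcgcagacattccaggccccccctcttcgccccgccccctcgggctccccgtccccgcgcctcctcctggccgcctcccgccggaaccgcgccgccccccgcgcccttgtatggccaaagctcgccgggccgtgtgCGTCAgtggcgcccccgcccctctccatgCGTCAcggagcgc
Nr4a2: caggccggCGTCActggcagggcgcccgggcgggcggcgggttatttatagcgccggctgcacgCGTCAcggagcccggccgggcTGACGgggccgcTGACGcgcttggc
Nr4a3: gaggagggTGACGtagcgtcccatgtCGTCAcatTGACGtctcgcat

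The following motifs were searched on both strands in these windows, and the same search over the 27025 genes with a window gives the background. The full CRE was present in 4 of the 32 genes (Maff, Btg2, Dusp1 and Dusp8), or 12.5%, against 1.77% of all genes. The half-site TGACG, which each full CRE contains on both strands, was in 16 genes, or 50.0%, against 19.8%. The EGR motif (GCGTGGGCG or GCGGGGGCG) was in 8 genes (Fosb, Fosl2, Maff, Nr4a1, Klf2, Klf4, Zfp36 and Dusp2), or 25.0%, against 3.47%. The CArG box was in Egr2, Zfp36 and Dusp5, or 9.38%, against 1.62%. The AP-1 motif TGANTCA, bound by Fos and Jun proteins, was in 0 of the 32 windows and in 7.82% of all genes. A match describes letters in a window and not binding, and sites farther upstream, where several of these genes are known to carry them, were not searched.

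**Figure D1:**
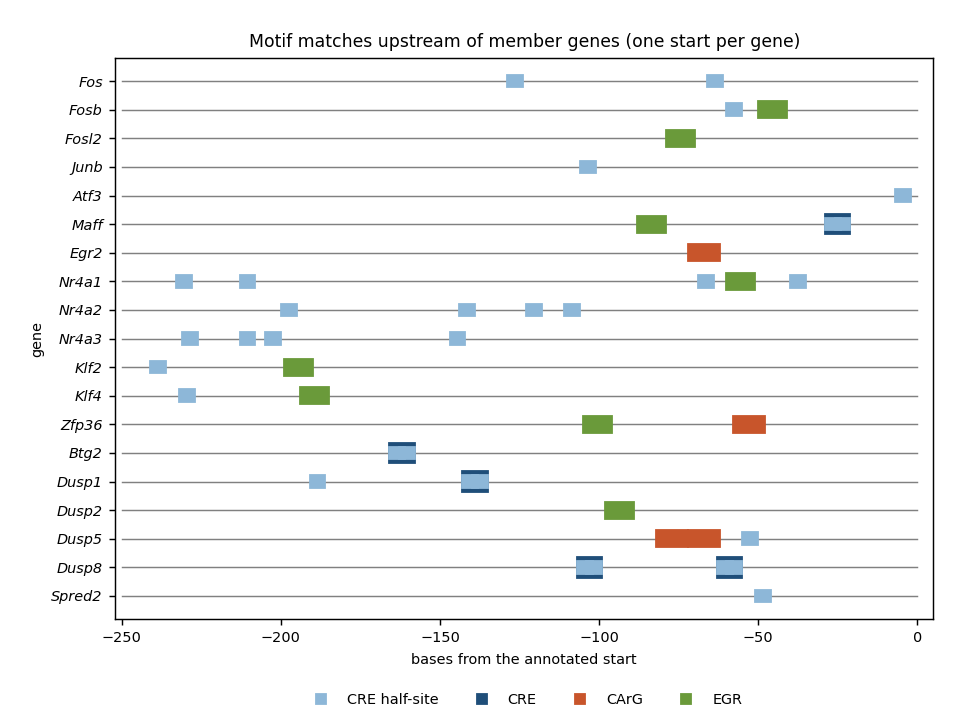
Motif matches in the 250 bases upstream of the annotated start of the member genes that hold at least 1 match; the x axis is the distance from the start in bases, and for a gene with several starts the first one with a match is drawn. Coloured boxes are the CRE half-site, the full CRE, the CArG box and the EGR motif; the full CRE appears in Maff, Btg2, Dusp1 and Dusp8, and rows of half-sites in Nr4a1, Nr4a2 and Nr4a3.

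By library name, 35 of the 39 genes were lower in the libraries labelled KO, where 54.5% of all genes tested were lower. The median log2 fold change of KO over WT was -0.27 over the set and -0.02 over all genes. The 4 genes with a value above 0 were Fos, Fosb, Egr1 and Gadd45a. No member passed an adjusted p of 0.05 in edgeR's quasi-likelihood test with Benjamini-Hochberg adjustment over all genes, where 0 of 14708 genes (0%) passed, as also in DESeq2 and limma-voom. Each member had the same adjusted p of 0.99993. An unadjusted p under 0.05 was reached by 4 members, Dusp8, Klf4, Gadd45g and Egr3, against 1.49% of all genes, and all 4 were on the lower side, against 0.85% of genes on that side and 0.639% on the other. The 3 libraries labelled KO all lay below the 3 labelled WT for 5 members (Fosl1, Klf4, Dusp8, Spry2 and Spred2, 12.8% of the set), against 2.62% of all genes, and above them for 0 members, against 3.33%. The p-values measure the spread between these 3 libraries a group, and in whole tissue fewer cells of a type cannot be told apart from less RNA per cell.

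By the genotype field the sign of most genes turned. Of the 39 genes 10 were lower in KO and 29 higher, where 51.9% of all genes were lower, and the median log2 fold change was 0.16, against -0.01 over all genes. In edgeR 0 members passed the adjusted p, against 2 of 14708 genes (0.0136%), neither of them a member. An unadjusted p under 0.05 was reached by 8 members (20.5% of the set), against 5.69% of all genes. They were Junb, Gadd45b, Dusp10, Dusp2, Nr4a2, Ier3, Ier2 and Zfp36, all on the higher side, which held 4.34% of all genes, with 1.35% on the lower side. The groups did not overlap for 5 members, Junb, Ier3, Dusp2, Dusp10 and Gadd45b, with KO above WT against 7.48% of all genes, and for 0 members with KO below WT against 4.49%.

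Taking both readings at once, 26 genes were lower by name and higher by field, a pattern that 29.2% of all genes showed. A further 9 were lower in both readings (Jun, Atf3, Klf6, Ier5, Btg2, Dusp1, Dusp4, Dusp6 and Spred1), as were 25.3% of all genes. Fos, Fosb and Gadd45a were higher in both, as were 18.9% of all genes, and Egr1 was higher by name and lower by field, as were 26.6%. The direction of the set as a whole therefore rests on which label is read. Without the 2 libraries whose Prkce level goes against the name (WT2 and KO3), 33 of the 39 genes were lower by name. Without the 2 that go against the field (KO2 and WT3), 20 of the 39 were lower by field, with a median of 0.00. What is left is WT1 and WT3 against KO1 and KO2 by name, and WT1 and KO3 against WT2 and KO1 by field. In both cases each library on the WT side had more Prkce than each on the KO side.

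**Figure D2:**
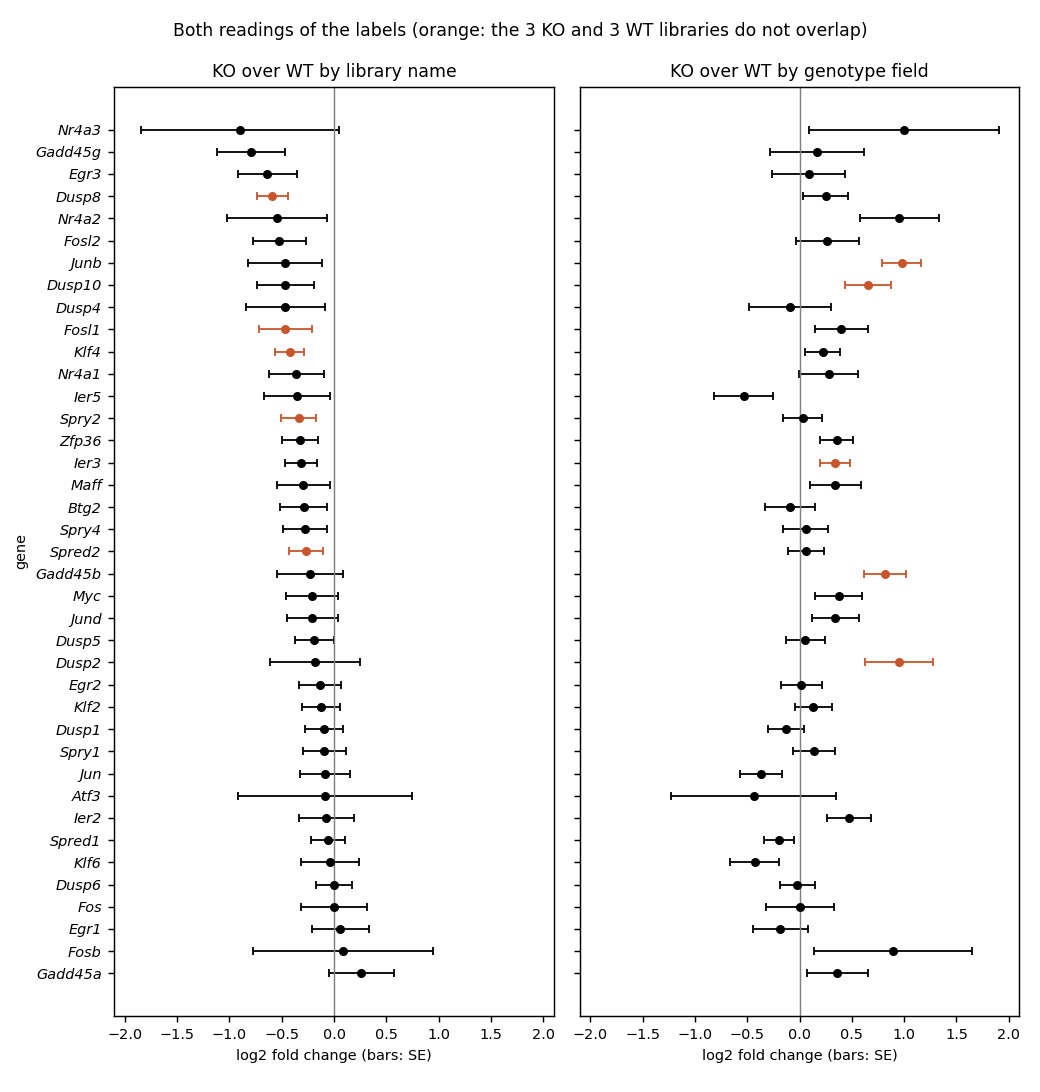
Log2 fold change of KO over WT for each of the 39 genes, on the left with groups by library name and on the right by genotype field; points are edgeR estimates from 3 against 3 libraries, bars are 1 SE, and orange marks genes whose 3 KO and 3 WT libraries do not overlap. By name 35 points lie below 0, and by field 29 lie above it.

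The replicate number in the titles puts 1 KO beside 1 WT library, though that these are true pairs was not shown. With that number as a block, the second reading called members where the fit without it called none. By the genotype field 51 of 14708 genes (0.347%) then had an adjusted p under 0.05 in edgeR, and 3 of them were members. These were Junb (log2 fold change 0.98, SE 0.16, adjusted p = 0.0111), Nr4a3 (0.91, SE 0.17, adjusted p = 0.0296) and Nr4a2 (1.00, SE 0.20, adjusted p = 0.0400). Junb alone also passed by the genotype field in DESeq2, with an adjusted p of 0.00541 among 27 genes called (0.184%), and in edgeR without a filter on low counts, with an adjusted p of 0.000547 among 25 genes called of 23671 (0.106%). The direction of Nr4a3 rested on WT3: with that library left out of the fit without the block, its log2 fold change was -0.08 by field and 0.26 by name. By library name the block gave 0 genes and 0 members past the adjusted p.

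**Figure D3:**
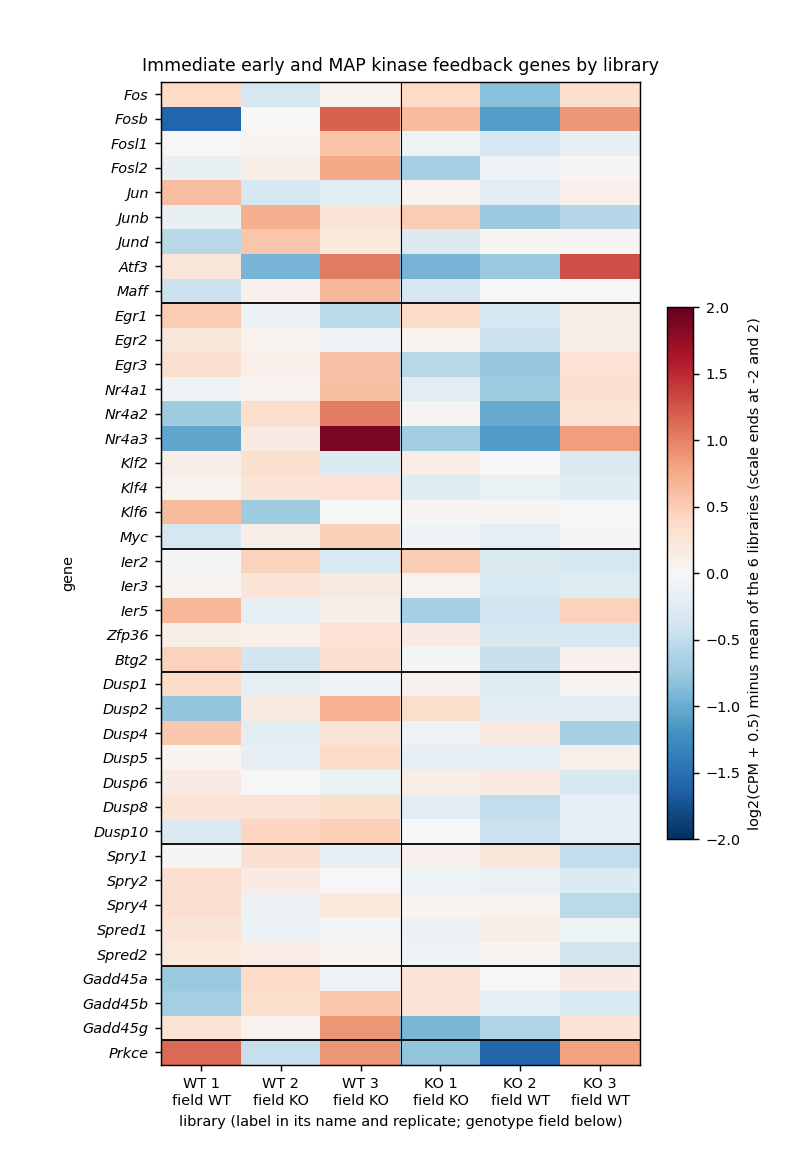
Level of each of the 39 genes and of Prkce (bottom row) in each library, as log2(CPM + 0.5) minus the mean of the 6 libraries; red is above that mean and blue below it, and lines separate the functional groups. Columns give the genotype in the library name with the replicate and, under it, the genotype field; KO2 is the lowest library for 14 genes and WT3 the highest for 17.

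Fos and Jun, the founding pair of AP-1, did not separate the groups. Fos was at 137, 82.0 and 107 CPM in WT1, WT2 and WT3 and 137, 57.9 and 131 CPM in KO1, KO2 and KO3. The lowest value, in KO2, stood against 2 of the 3 highest in the other libraries labelled KO, and both readings gave a log2 fold change of 0.00 (SE 0.32 in each, 95% interval by name -0.62 to 0.62), a value whose sign turned by name in limma-voom and by field with the size factors of DESeq2. That interval leaves room for differences of about the size seen elsewhere in the set. Jun, whose gene body is shared over part of its length with the antisense gene Junos, was at 119, 60.6 and 66.4 CPM in WT1, WT2 and WT3 and 81.1, 67.0 and 83.2 CPM in KO1, KO2 and KO3. WT1 was the highest and the other 5 libraries lay between 60.6 and 83.2 CPM, with a log2 fold change of -0.09 (SE 0.24) by name and -0.37 (SE 0.20) by field.

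Among the other AP-1 proteins, Junb and Fosb differed more between libraries. Junb, a Jun-family partner that often opposes Jun, was at 28.2, 51.3 and 37.3 CPM in WT1, WT2 and WT3 and 44.7, 18.6 and 20.8 CPM in KO1, KO2 and KO3. The 3 libraries that the genotype field calls KO (WT2, WT3 and KO1) were all above 37 CPM and the other 3 all below 29 CPM. By field this gave 44.4 ± 7.02 CPM in KO against 22.5 ± 5.03 CPM in WT (SD, n = 3), a log2 fold change of 0.98 (SE 0.19, unadjusted p = 0.000298) and an adjusted p of 0.536 in edgeR, the smallest of the 39. By name it was -0.47 (SE 0.35), with groups that overlap, and ran from -0.97 without KO1 to -0.22 without WT2. Fosb, which forms AP-1 dimers with Jun proteins and builds up under sustained stimulation, was at 12.1, 37.6 and 85.7 CPM in WT1, WT2 and WT3 and 58.3, 17.0 and 68.5 CPM in KO1, KO2 and KO3. Its highest library was 7.11 times its lowest, the groups overlapped in both readings, and the SE of its log2 fold change was 0.86 by name and 0.75 by field.

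Fosl2 and Fosl1, the Fos-related antigens, were lower in the libraries labelled KO by name. Fosl2 was at 82.3, 101 and 155 CPM in WT1, WT2 and WT3 and 57.4, 85.6 and 92.8 CPM in KO1, KO2 and KO3. WT3 was the highest and KO1 the lowest, the groups overlapped by name (KO3 above WT1), and the log2 fold change was -0.52 (SE 0.25, unadjusted p = 0.0636), which was -0.22 without WT3 and -0.33 without KO1. Fosl1, which is low in this tissue, was at 6.84, 7.07 and 10.5 CPM in WT1, WT2 and WT3 and 6.36, 5.29 and 6.07 CPM in KO1, KO2 and KO3. All 3 libraries labelled KO lay below all 3 labelled WT by name, with a gap between 6.36 and 6.84 CPM, and the log2 fold change was -0.46 (SE 0.25, unadjusted p = 0.0944), or -0.23 without WT3. In both cases the value by field was on the other side of 0, at 0.27 (SE 0.30) for Fosl2 and 0.40 (SE 0.25) for Fosl1, though without WT3 it was -0.14 for Fosl2. Of the Fosl1 gene body 67.1% is free of other genes, and counts without strand cannot separate it from Ccdc85b in the rest.

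Atf3, a stress-induced repressor of the ATF family, varied between libraries more than between labels. It was at 118, 52.2 and 206 CPM in WT1, WT2 and WT3 and 52.1, 59.5 and 244 CPM in KO1, KO2 and KO3. KO3, WT3 and WT1 were the 3 highest, as they were for Prkce, and WT2, KO1 and KO2 lay together between 52.1 and 59.5 CPM. By both readings the groups overlapped, with log2 fold changes of -0.08 (SE 0.83) by name and -0.44 (SE 0.79) by field. KO3, WT3 and WT1 were also the 3 highest libraries for Btg2, Ier5, Egr3, Gadd45g and Dusp5. The share of all genes with these libraries highest was not counted, so the split shows nothing particular to Atf3 or to the set. Jund, the Jun protein that is present in resting cells, ran from 32.9 CPM in WT1 to 70.9 CPM in WT2, and Maff, a small Maf factor that lacks an activation domain, from 28.2 CPM in WT1 to 61.2 CPM in WT3. Both were lower by name (-0.21, SE 0.24, and -0.29, SE 0.25) and higher by field (0.34, SE 0.23, and 0.34, SE 0.24). Only 44.9% of the Jund gene body is free of other annotated genes.

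In the second group of transcription factors, Klf4, which restrains inflammation and proliferation in vessel walls and other tissues, separated the groups by name. Klf4 was at 87.3, 99.9 and 102 CPM in WT1, WT2 and WT3 and 69.8, 75.9 and 70.0 CPM in KO1, KO2 and KO3. All 3 libraries labelled KO lay below the lowest library labelled WT, at 71.9 ± 3.47 against 96.4 ± 7.93 CPM (SD, n = 3). The log2 fold change was -0.42 (SE 0.14, unadjusted p = 0.0103, edgeR adjusted p = 0.99993) by name and 0.22 (SE 0.17) by field. The related factors Klf2, a flow-responsive gene of endothelium, and Klf6 showed no such split: Klf2 was between 71.5 and 109.7 CPM, and Klf6 between 54.7 CPM in WT2 and 139 CPM in WT1 with the other 4 libraries at 89.1 to 93.8 CPM.

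The EGR zinc finger factors differed in which libraries were high. Egr1, the most abundant of them, was at 384, 247 and 185 CPM in WT1, WT2 and WT3 and 348, 210.1 and 293 CPM in KO1, KO2 and KO3. WT1 and KO1 were the 2 highest libraries and WT3 the lowest, and the log2 fold change was 0.06 (SE 0.27) by name and -0.19 (SE 0.26) by field. Egr3, which acts downstream of several receptors in muscle and immune cells, was at 18.7, 16.0 and 22.5 CPM in WT1, WT2 and WT3 and 9.88, 8.56 and 18.3 CPM in KO1, KO2 and KO3. KO1 and KO2 were the 2 lowest, while KO3 lay among the libraries labelled WT. The log2 fold change by name was -0.64 (SE 0.28, unadjusted p = 0.0441) and by field 0.09 (SE 0.35). The value by name was -1.05 without KO3 and -0.44 without KO2, and its unadjusted p was above 0.05 with any 1 of WT1, WT3, KO1 and KO2 left out. Egr2 ran from 12.7 CPM in KO2 to 20.1 CPM in WT1, with -0.13 (SE 0.20) by name and 0.02 (SE 0.20) by field.

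The 3 NR4A genes, which encode orphan nuclear receptors induced by cAMP and stress, shared the order of their extreme libraries: WT3 was the highest and KO2 the lowest for each. Nr4a1 was at 228, 249.8 and 364 CPM in WT1, WT2 and WT3 and 207, 146 and 303 CPM in KO1, KO2 and KO3. Its groups overlapped in both readings, with -0.36 (SE 0.27) by name and 0.28 (SE 0.28) by field. Nr4a2 was at 6.54, 14.2 and 23.3 CPM in WT1, WT2 and WT3 and 11.5, 5.22 and 13.4 CPM in KO1, KO2 and KO3. The libraries that the field calls KO were at 16.3 ± 6.15 CPM and the others at 8.39 ± 4.40 CPM (SD, n = 3), a log2 fold change of 0.95 (SE 0.38, unadjusted p = 0.0317), and KO3 at 13.4 CPM lay among the former. That value was 0.60 without WT3 and 1.48 without KO3, and its unadjusted p was above 0.05 with any 1 of WT1, WT3 and KO2 left out. Nr4a3 was at 18.0, 41.9 and 139 CPM in WT1, WT2 and WT3 and 22.9, 16.8 and 67.2 CPM in KO1, KO2 and KO3. Its highest library was 8.27 times its lowest, the widest range of the 39, and the log2 fold changes of -0.90 (SE 0.95) by name and 1.00 (SE 0.91) by field were about as large as their errors. Myc, a growth regulator at a low level in this tissue, was at 7.50, 10.7 and 13.7 CPM in WT1, WT2 and WT3 and 9.14, 8.56 and 9.89 CPM in KO1, KO2 and KO3. WT1 was the lowest and WT3 the highest, with -0.21 (SE 0.25) by name and 0.37 (SE 0.22) by field.

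Of the 5 immediate early genes outside these families, each was lower by name. Zfp36, which binds AU-rich elements and speeds the decay of inflammatory mRNAs, was at 144, 141 and 161 CPM in WT1, WT2 and WT3 and 147, 105 and 103 CPM in KO1, KO2 and KO3. KO2 and KO3 were the 2 lowest, and KO1 lay among the libraries labelled WT. The log2 fold change was -0.33 (SE 0.17, unadjusted p = 0.0806) by name and 0.35 (SE 0.16, unadjusted p = 0.0471) by field, and the value by name was -0.51 without KO1. Of its gene body 63.3% is free of other genes. Ier3, a survival factor that ERK phosphorylates, was at 45.8, 52.8 and 50.1 CPM in WT1, WT2 and WT3 and 46.6, 35.8 and 36.9 CPM in KO1, KO2 and KO3. KO2 and KO3 were again the 2 lowest, so by field KO lay above WT in all libraries, with a narrow gap between 45.8 and 46.6 CPM and a log2 fold change of 0.33 (SE 0.14, unadjusted p = 0.0395). By name it was -0.32 (SE 0.16, unadjusted p = 0.0658). By field the unadjusted p of Ier3 and of Zfp36 was above 0.05 with any 1 of WT2, WT3, KO2 and KO3 left out.

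Ier2, a nuclear protein of this class, was near 50 CPM in WT2 (49.1 CPM) and KO1 (50.1 CPM) and between 27.9 and 35.0 CPM elsewhere, with -0.07 (SE 0.26) by name and 0.47 (SE 0.21) by field. Ier5, which takes part in the heat shock response, ran from 35.4 CPM in KO1 to 89.8 CPM in WT1 and was below 0 in both readings, at -0.35 (SE 0.32) and -0.54 (SE 0.28). Btg2, an antiproliferative cofactor of mRNA deadenylation, ran from 185 CPM in KO2 to 347 CPM in WT1, at -0.29 (SE 0.22) and -0.09 (SE 0.24). For these 3 genes the groups overlapped in both readings.

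Dusp8, a phosphatase that acts on JNK and p38 and is known from heart and brain, had the smallest p of the 39 by name. It was at 42.9, 42.8 and 45.2 CPM in WT1, WT2 and WT3 and 30.3, 25.2 and 31.5 CPM in KO1, KO2 and KO3. The libraries labelled WT lay close together, and all were above the highest library labelled KO. The means were 29.0 ± 3.35 CPM in KO and 43.7 ± 1.37 CPM in WT (SD, n = 3), a log2 fold change of -0.59 (SE 0.15, unadjusted p = 0.00216), and with 14708 genes tested the edgeR adjusted p was 0.99993. Over the 16 alternative settings and left-out libraries the log2 fold change by name stayed between -0.67 and -0.50 and the adjusted p between 0.733 and 0.99998. By field the log2 fold change was 0.25 (SE 0.21), with groups that overlap.

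Dusp10, which inactivates JNK and p38, and Dusp2, a nuclear ERK phosphatase, were low in expression and separated the groups by field. Dusp10 was at 6.36, 10.7 and 11.1 CPM in WT1, WT2 and WT3 and 7.89, 5.73 and 6.75 CPM in KO1, KO2 and KO3. WT2, WT3 and KO1, the libraries that the field calls KO, were the 3 highest, with a log2 fold change of 0.65 (SE 0.22, unadjusted p = 0.0133) by field and -0.46 (SE 0.27, unadjusted p = 0.111) by name. Dusp2 was at 1.56, 3.53 and 5.22 CPM in WT1, WT2 and WT3 and 4.03, 2.54 and 2.55 CPM in KO1, KO2 and KO3. The same 3 libraries were the highest, with a log2 fold change of 0.95 (SE 0.33, unadjusted p = 0.0142) by field and -0.19 (SE 0.43) by name. These levels rest on 26 to 119 counts, and the 95% Poisson interval in WT1 was 1.02 to 2.28 CPM, an interval that like all of those given here covers counting error only. Without WT3 the edgeR unadjusted p by field was 0.0593 for Dusp10 and 0.0743 for Dusp2.

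The other 4 phosphatases, which include genes commonly read as a gauge of pathway output, overlapped between the groups in both readings. Dusp1, which acts on p38, JNK and ERK in the nucleus, was at 305, 207 and 225 CPM in WT1, WT2 and WT3 and 249, 196 and 243 CPM in KO1, KO2 and KO3. WT1 was the highest and the other 5 lay between 196 and 249 CPM, with -0.10 (SE 0.18) by name and -0.13 (SE 0.17) by field. Dusp6, the cytoplasmic ERK phosphatase, ran from 28.7 CPM in KO3 to 40.2 CPM, and its log2 fold change was 0.00 by name (SE 0.17, 95% interval -0.34 to 0.34) and -0.02 by field (SE 0.17). The sign by name turns to above 0 with the size factors of DESeq2. Dusp5, a nuclear ERK phosphatase, ran from 20.2 CPM in KO2 to 30.0 CPM in WT3, with -0.19 (SE 0.19) and 0.06 (SE 0.19). Dusp4, another nuclear one, was at 1.66 CPM in KO3 to 4.50 CPM in WT1, with -0.46 (SE 0.38) and -0.09 (SE 0.39).

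Sprouty and Spred proteins inhibit the step from growth factor receptors to Ras and Raf. Each of the 5 genes had a log2 fold change below 0 by name, and 2 of them, Spry2 and Spred2, had groups that do not overlap. Spry2 was at 26.8, 24.0 and 21.2 CPM in WT1, WT2 and WT3 and 20.0, 19.4 and 17.6 CPM in KO1, KO2 and KO3. The step between the groups by name, from 20.0 CPM in KO1 to 21.2 CPM in WT3, was small beside the range within each, and the log2 fold change was -0.34 (SE 0.17, unadjusted p = 0.0702), against 0.03 (SE 0.19) by field. Spred2 was at 34.8, 33.2 and 30.9 CPM in WT1, WT2 and WT3 and 28.3, 30.8 and 23.0 CPM in KO1, KO2 and KO3. KO2 at 30.8 CPM and WT3 at 30.9 CPM nearly touched, with -0.27 (SE 0.16) by name and 0.06 (SE 0.17) by field.

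The other 3 genes of this group overlapped in both readings. Spry4 ran from 15.5 CPM in KO3 to 28.7 CPM in WT1 (-0.28, SE 0.21, by name and 0.06, SE 0.22, by field). Spry1 ran from 21.5 CPM in KO3 to 37.6 CPM in WT2 (-0.09, SE 0.21, and 0.14, SE 0.20). Spred1 had the narrowest range of the 39, from 32.3 CPM in WT2 to 42.4 CPM in WT1, or 1.31-fold, with -0.06 (SE 0.16) and -0.20 (SE 0.14).

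Gadd45 proteins bind the kinase MEKK4 and activate p38 and JNK, and they also act in growth arrest and DNA demethylation. The 3 genes took 3 patterns. Gadd45g was at 30.3, 26.2 and 46.6 CPM in WT1, WT2 and WT3 and 13.1, 16.3 and 30.2 CPM in KO1, KO2 and KO3. KO1 and KO2 were the 2 lowest, and KO3 at 30.2 CPM lay beside WT1 at 30.3 CPM, with a log2 fold change of -0.79 (SE 0.33, unadjusted p = 0.0377) by name and 0.16 (SE 0.45) by field. The value by name was -0.50 without WT3 and -1.23 without KO3, and its unadjusted p was above 0.05 with any 1 of WT1, WT3, KO1 and KO2 left out. Gadd45b was at 6.96, 14.8 and 17.0 CPM in WT1, WT2 and WT3 and 14.0, 9.93 and 9.15 CPM in KO1, KO2 and KO3. The 3 libraries that the field calls KO were at 15.3 ± 1.55 CPM and the other 3 at 8.68 ± 1.54 CPM (SD, n = 3), a log2 fold change of 0.82 (SE 0.20, unadjusted p = 0.00193, edgeR adjusted p = 0.639), while by name it was -0.23 (SE 0.32). Gadd45a ran from 3.54 CPM in WT1 to 8.25 CPM in WT2, with 0.26 (SE 0.31) by name and 0.36 (SE 0.29) by field, and 63.6% of its gene body is free of other genes.

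**Figure D4:**
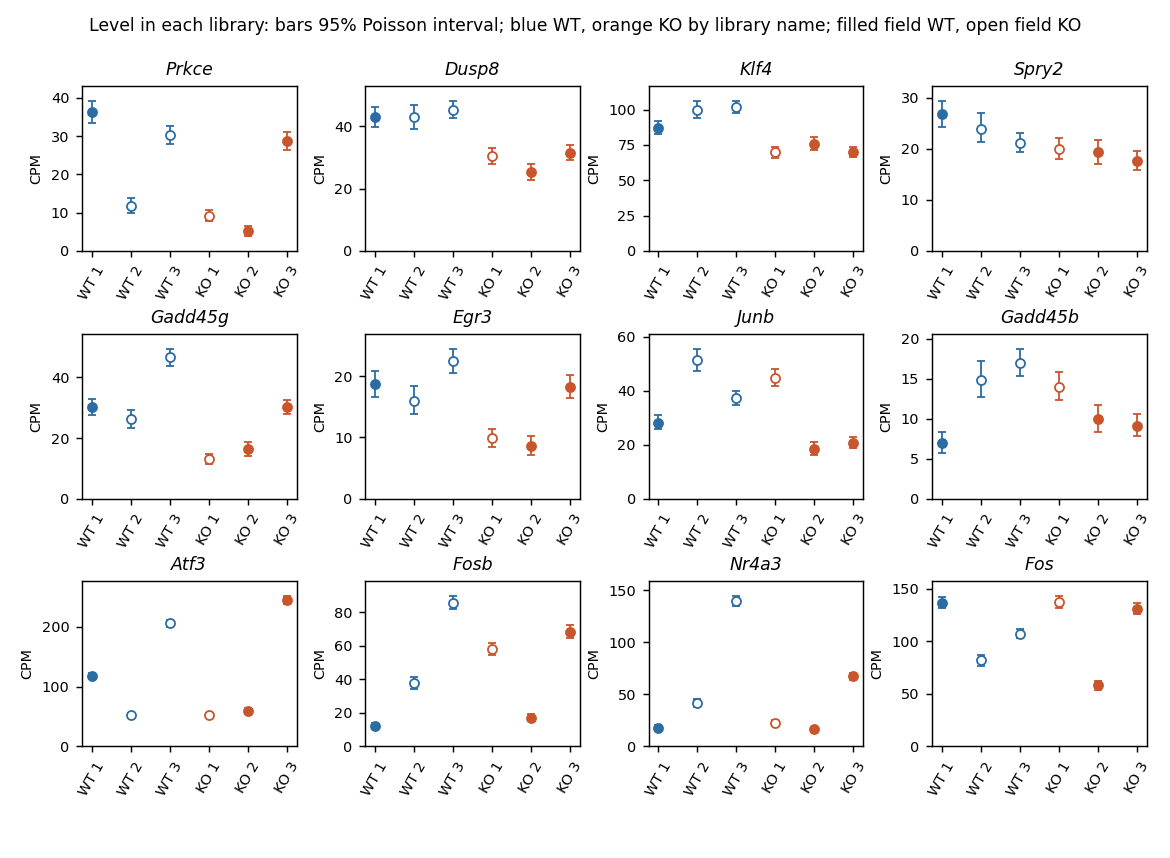
CPM of Prkce and 11 of the genes in each library, with 95% Poisson intervals of the count as bars; blue is WT and orange KO by library name, filled points are WT and open points KO by genotype field. Dusp8, Klf4 and Spry2 separate blue from orange, Junb and Gadd45b separate open from filled, and Atf3, Fosb, Nr4a3 and Fos separate neither.

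The highest and lowest values of the members were spread unevenly over the libraries. WT3 held the highest value of 17 of the 39 genes (11.6% of all genes tested were highest there), WT1 of 12 (27.4%), WT2 of 6 (20.3%), KO1 of 2 (13%), KO2 of 1 (15.6%) and KO3 of 1 (12.1%). KO2 held the lowest value of 14 genes (17.8% of all genes), KO3 of 9 (11.9%), WT1 of 7 (25.1%), KO1 of 5 (12.4%), WT2 of 3 (20.5%) and WT3 of 1 (12.3%). Against the mean of the 6 libraries on the log2(CPM + 0.5) scale, the median deviation of the 39 genes was 0.28 in WT3, 0.12 in WT1, 0.11 in WT2, 0.01 in KO1, 0.00 in KO3 and -0.26 in KO2. The members together took between 0.190% of counts, in KO2, and 0.293%, in WT1. Without WT3 the median log2 fold change over the set was -0.20 by name and 0.05 by field, and without KO2 it was -0.23 and 0.09.

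The ratio of the highest to the lowest library had a median of 1.98 over the 39 genes and 1.65 over all genes tested. It was 3 or more for 6 members (Nr4a3, Fosb, Atf3, Nr4a2, Gadd45g and Dusp2, 15.4% of the set), a range that 14.3% of all genes reached, and under 1.5 for 5 members. Heat shock genes, which also respond to stress and handling, were highest in WT3: the summed level of 10 of them was 3682 CPM there and between 2049 and 2676 CPM in the other 5 libraries, and its part in the members' levels was not tested. Of these 10 genes 10 were lower by name, with Hspa1a at -1.83 (SE 0.52) and Hsph1 at -0.76 (SE 0.27), and 9 were higher by field, with Hspb1 at 0.90 (SE 0.28) and Hspa1b at 1.65 (SE 0.74). None of the 10 passed the adjusted p in either reading.

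Per length of exon, merged over all annotated transcripts of a gene, the immediate early genes spanned a wide range of levels. Btg2 was the highest at 94.2 CPM per kilobase of exon (mean of the 6 libraries), followed by Dusp1 at 71.7, Nr4a1 at 71.2, Egr1 at 62.0 and Atf3 at 56.6 CPM per kilobase. Fos was at 46.2 and Jun at 24.9 CPM per kilobase. The ranges over libraries of the leading 5 overlap, so their order is not fixed by these data. At the other end were Dusp4 at 1.12 and Dusp2 at 1.62 CPM per kilobase, with Prkce itself at 2.78 CPM per kilobase.

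**Figure D5:**
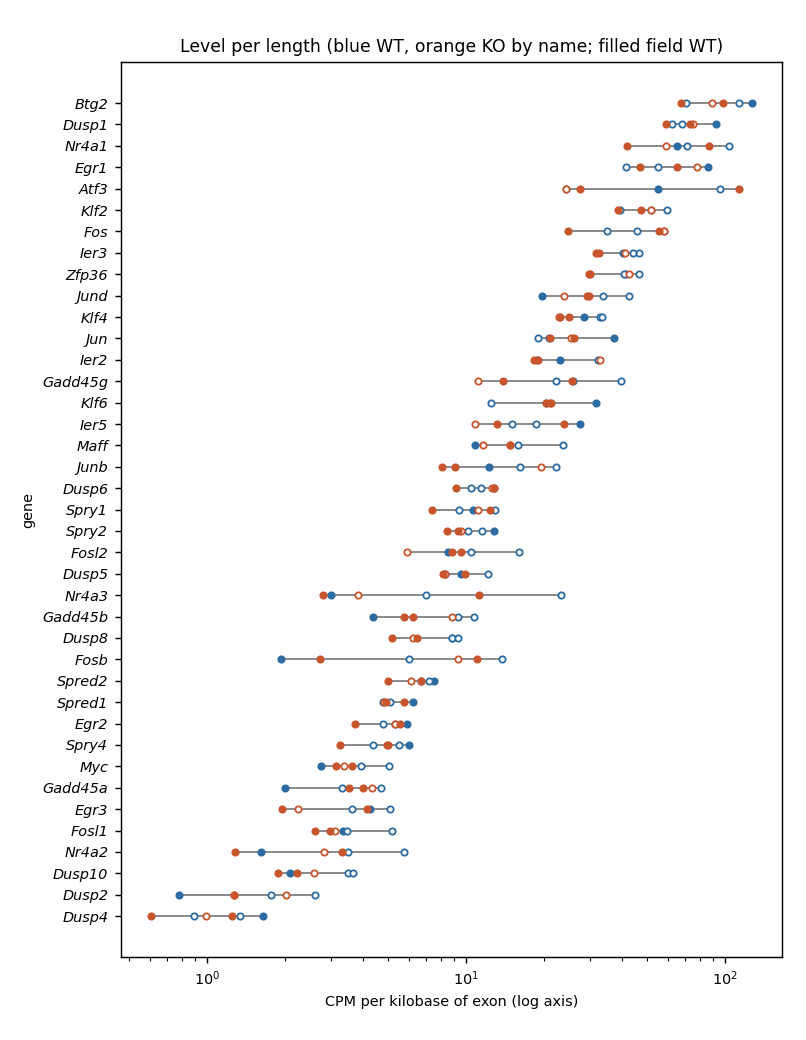
Level of each of the 39 genes per kilobase of exon on a log axis, ordered by the mean; each point is 1 library, blue for WT and orange for KO by name, filled for WT and open for KO by genotype field, and lines join the lowest and highest library. Levels run from about 1 CPM per kilobase for Dusp4 to 94.2 for Btg2, and the points of neighbouring genes overlap.

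WT1 and KO1 are the 1 pair whose labels match in both readings, and they carry Prkce at 36.2 and 9.20 CPM. With 1 library on each side there is no test and no replicate check, only counting error. In KO1, 22 of the 39 genes were lower than in WT1 and 17 higher, where 49.4% of all genes were lower, and the median log2 ratio was -0.14 against 0.01 over all genes. The 95% Poisson intervals were apart for 17 of the lower and 9 of the higher genes. The same count was not made over all genes, so it shows nothing particular to the set. Genes at least 1.5-fold lower in KO1 were Ier5 (ratio 0.394), Gadd45g (0.431), Atf3 (0.442), Egr3 (0.528) and Dusp4 (0.606), 5 genes or 12.8% against 11.2% of all genes. Genes at least 1.5-fold higher were Fosb (4.83), Dusp2 (2.59), Gadd45a (2.17), Gadd45b (2.02), Nr4a2 (1.76) and Junb (1.59), 6 genes or 15.4% against 12.3% of all genes. Both shares are near those of all genes.

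Over the 3 replicate-numbered pairs by name, 11 genes were lower in the library labelled KO in each pair (28.2% of the set, against 9.63% of all genes): Fosl1, Fosl2, Egr3, Nr4a1, Klf4, Btg2, Dusp5, Dusp8, Spry2, Spred2 and Gadd45g. Another 24 (61.5%) were lower in 2 of the 3 pairs, against 42.8% of all genes, and 4 (10.3%) in 1 pair only, against 36.6%. In 0 pairs were 0 members lower, against 11.1% of all genes. By field the signs in pairs 2 and 3 are reversed. Higher in KO in each pair were then Fosb, Junb, Jund, Maff, Nr4a2, Nr4a3, Klf2, Myc, Ier2, Ier3, Zfp36, Dusp2, Dusp10, Spry1 and Gadd45b. Jun and Atf3 were then lower in KO in each pair. The shares of all genes were not counted by field. By name the log2 ratios in pairs 1, 2 and 3 were -1.21, -0.68 and -0.63 for Gadd45g and -0.50, -0.77 and -0.52 for Dusp8.

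In the rest of the pathway 131 of 145 listed genes were tested, and none passed the adjusted p in either reading. By name 104 were lower and 27 higher with a median log2 fold change of -0.11, and by field 54 were lower and 77 higher with a median of 0.04. Among the ligands and receptors (19 of 25 lower by name), Hbegf, a ligand of the EGF receptor, was at -0.49 (SE 0.23) and its receptor Erbb4 at -0.51 (SE 0.24). By field Igf1 was at 0.49 (SE 0.17) and Vegfa at 0.34 (SE 0.15). Among adaptors, Ras and Raf (14 of 16 lower by name), the kinase Braf was at -0.27 (SE 0.18) and the exchange factor Sos2 at -0.20 (SE 0.23), and by field Hras was at 0.48 (SE 0.20) and Sos1 at -0.74 (SE 0.47).

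Among the kinases themselves (18 of 24 lower by name), Map2k1, which encodes MEK1, was at -0.24 (SE 0.14) and Mapk4 at -0.25 (SE 0.23). By field Map2k2, which encodes MEK2, had the smallest p of the whole pathway, at 0.53 (SE 0.13, unadjusted p = 0.00211), with Map3k11 at 0.42 (SE 0.14). Among the effectors (20 of 26 lower by name), Mrtfa, an SRF cofactor, was at -0.52 (SE 0.23) and the ETS factor Etv1 at -0.42 (SE 0.20), and by field the ERK-activated kinase Mknk2 was at 0.43 (SE 0.14) and Rps6ka5 at -0.62 (SE 0.28). The dual-specificity phosphatases and Spred genes outside the 39 split evenly by name (4 of 8 lower), with Dusp16 at -0.35 (SE 0.16) and Dusp18 at -0.29 (SE 0.18), and by field Dusp3 at -0.30 (SE 0.18) and Spred3 at 0.46 (SE 0.36).

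Of the early response genes outside the 39, 29 of 32 were lower by name and 21 of 32 higher by field. Over all genes tested 54.5% were lower by name and 51.9% by field. The summed level of this list was 3064.9 to 3569 CPM in the libraries labelled WT by name and 2430 to 2942 CPM in those labelled KO. By field the sums overlapped, at 2746 to 3204 CPM in WT and 2430 to 3569 CPM in KO. The summed level of the 39 genes overlapped in both readings, by name at 2372 to 2988 CPM in WT and 1934 to 2698 CPM in KO. Cebpb was at -0.89 (SE 0.24) and Cebpd, its partner in the acute phase response, at -0.57 (SE 0.22) by name, and Nfkbiz was at 1.07 (SE 0.31) and Socs3 at 1.38 (SE 0.43) by field. Fgf1, Map2k7, Mapkapk5, Srf, Dusp19 and Csrnp1 had 0 counts in every library, although Srf and Map2k7 are expressed in most tissues, so these 0 counts are given as listed.

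The 2 tested markers of ventricular muscle went opposite ways by field. Myl2, a ventricular light chain, was at 357, 174 and 251 CPM in WT2, WT3 and KO1, the libraries that the field calls KO, and at 25.7 to 33.4 CPM in the other 3. Its log2 fold change was 3.09 (SE 0.25, edgeR adjusted p = 0.00386), 1 of the 2 genes that passed by field. Myh7, the slow myosin heavy chain, had a log2 fold change of -0.30 (SE 0.59) by field and ran from 47.4 CPM in KO2 to 280.2 CPM in KO3. Macrophage markers summed to 314 to 376 CPM in KO and 268 to 342 CPM in WT by field (4 of 5 higher). By name they summed to 292 to 342 CPM in KO and 268 to 376 CPM in WT (2 of 5 higher). The macrophage, endothelial, fibroblast, smooth muscle, neutrophil, platelet, Schwann, epicardial and lymphocyte lists all overlapped between the groups in both readings. Adipocyte genes were at a sum of 93.7 CPM in KO2 and at most 31.3 CPM elsewhere, and Tcf21 and Ms4a1 were at 0 in all libraries. The part of these cells in the members' levels was not tested.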

How the data were processed

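RNA-seq was made from atrial tissue of 6 old mice. Per the labels' protocols, libraries were prepared from 1 µg of total RNA with the unstranded TruSeq RNA kit, version v2. Per the submitters' processing notes, reads were checked with FastQC 0.11.5 and MultiQC 1.7, and the authors used HISAT2 2.1.0, featureCounts 1.5.0-p3 and the build GRCm38. Not given in the sources used here were the annotation release, the counted feature type and whether strand was used. The deposited values are raw counts per gene, 1 column per library, from 11574206 to 24138824 counts a library, and every row names a gene.

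Counts were scaled by TMM and tested with edgeR 4.0.16 (glmQLFit, robust, and glmQLFTest, two-sided, R 4.3.3) after filterByExpr, on the whole table, with Benjamini-Hochberg adjustment over all genes tested and a threshold of 0.05. The SE of a log2 fold change was taken from the F statistic, and intervals are normal approximations. Because the labels contradict each other for 4 libraries, both readings were fitted. Deviations from the group means correlated between same-numbered libraries at 0.157, 0.162 and 0.121 by name for numbers 1, 2 and 3. By field the values were 0.269, 0.227 and 0.121. Differently numbered libraries were not compared. Number 1 also has library names of another form, and a shift shared by that pair alone would raise all 3 values. The correlations therefore cannot show that numbers 2 and 3 are pairs. The fit with the replicate number as a block is given where it changes a call. Alternatives were DESeq2 1.42.0, limma-voom (limma 3.58.1), other size factors and filters, covariates and left-out libraries. CPM are TMM-scaled, with 95% exact Poisson intervals. The scripts were tested on simulated data. Symbols, exon lengths and overlaps came from GENCODE M21 on GRCm38, and promoter windows from RefSeq.

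The members, the lists and the tests were chosen with earlier results of these data known. Full statistics are given for the 10 members with the smallest p by library name and the 5 by genotype field, per-library levels also for Fos, Jun, Egr1, Atf3, Myc, Dusp1 and Prkce, and for each list of pathway genes and the heat shock list in each reading the 2 with the lowest p. Of the marker lists only summed levels and Myl2 are given. Nr4a3, Nr4a1, Spred2 and Fosb were given per library after their values were seen.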

Additional observations from a re-analysis of the deposited data

How the results depend on the processing

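By library name, 29 to 37 of the 39 genes were lower over all alternatives and left-out libraries, with 29 when the Y-linked level was a covariate and 30 in the 4 libraries with contradictory labels alone, and the median log2 fold change kept its sign, from -0.41 to -0.20. No alternative brought a member past the threshold by name. Genes past it by name, 0 in the fit reported, were 1 without a low-count filter, 3 in the 4 libraries with contradictory labels alone, 6 without the 2 libraries at odds with Prkce, and 0 to 4 with each library left out in turn (4 without WT3, 2 without WT1). By genotype field, genes past the threshold, 2 in the fit reported, were 27 in DESeq2, 1 in limma-voom, 25 without a low-count filter, 51 with the replicate block, 7 with the library series (the pair WT1 and KO1 against the rest) as a covariate, and 0 to 2 with each library left out (0 without WT1 or KO3, 1 without WT2, WT3 or KO2). Members past it by field, 0 as reported, were 1 in DESeq2, 1 without a low-count filter and 3 with the replicate block, which changed no other call. The median by field was 0.36 in the 4 libraries with contradictory labels alone. Members lower by field, 10 as reported, were 20 without the 2 libraries at odds with Prkce and 5 to 15 with each library left out (5 without WT1, 15 without KO2). The causes of these shifts were not tested. For the 15 single-gene values reported in full, 236 of 240 alternatives kept direction and side of the threshold, and the other 4 (Junb in DESeq2, without a filter and with the block, and Nr4a2 with the block) kept direction and passed it. None of the 15 passed in the fit reported, so the same side means not passing again. Dusp10 and Dusp2 had no adjusted p by field in DESeq2 and were counted as not passing. Depth limits Dusp2 and Dusp4 most, and with 3 libraries a group and contradictory labels on 4 of them, a member that did not pass is not shown to be alike in both genotypes.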
